A study of Oryza sativa with 20 samples.

Results

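Rice pistils collected 5-7 h after pollination, the stage at which the labels place zygote formation, were compared with unpollinated stigma and unpollinated ovary on Affymetrix Rice Genome Arrays. Each of the 3 groups had 3 arrays, so 9 of the 20 arrays of the series were compared. The spread behind the p-values was estimated from all 20, which include stigma (2 arrays) and ovary (3 arrays) taken 5 min after pollination. A gene was counted only where the 5-7 h pistil lay above both unpollinated tissues or below both, because the 5-7 h samples were whole pistils (stigma plus ovary) and a mixture of the 2 references alone gives a level between them. All groups were rice (Oryza sativa) grown in a paddy field, with no other treatment or genotype named in the labels. The pollinated pistils still carried their pollen grains, and the unpollinated tissues had none applied. Whole pistils at 15-25 min (pollen tube growth, 3 arrays) and 40-50 min (fertilization, 3 arrays) served as earlier stages of the same tissue. Replicates were labelled biological, but not as separate plants or days, and the p-values below therefore describe the spread among these arrays, which may be technical.

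In flowering plants 1 sperm cell fuses with the egg cell to form the zygote and another with the central cell to form the endosperm. Both products must replicate their DNA before they divide. Replication starts where the origin recognition complex (ORC) loads the MCM helicase, after which replication protein A (RPA) coats the single strands and the sliding clamp PCNA, loaded by replication factor C (RFC), holds the polymerase. A rice ovary after pollination also holds dividing and growing maternal tissue, and the zygote is 1 cell among many. In bulk tissue a change in the number of cells of a type and a change in RNA per cell cannot be told apart.

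Signals were read as relative intensities, scaled so that 1 equals the 75th percentile of an array, and changes are log2 differences of group means. Values below 0.128 were raised to that floor. The change given for a gene is the smaller of its 2 changes unless a tissue is named, and a call required a limma adjusted p under 0.05 with the same sign against both tissues. The 3 arrays at 5-7 h correlated with each other at 0.982 to 0.988, those of the stigma at 0.937 to 0.952 and those of the ovary at 0.947 to 0.967. On the rice array the median of all probe sets was 0.29 log2 units lower in the 5-7 h pistil than in the stigma and 0.08 lower than in the ovary.

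More probe sets were called above both unpollinated tissues than below both, and the upward changes were larger. Of 35470 probe sets tested, 3055 (8.61%) were above both tissues and 2628 (7.41%) below both. At least 2-fold changes numbered 1501 upward and 815 downward, and at least 8-fold changes 126 and 21. Per gene, with 1 probe set for each of 16263 genes, 2087 (12.8%) were above both and 1450 (8.92%) below both. Only 222 probe sets were above the stigma and below the ovary, and 317 the reverse, with both changes past the threshold. The 3 arrays at 5-7 h lay clear of all 6 unpollinated arrays for 2935 of the 3055 and 2538 of the 2628 calls, against 4353 (12.3%) high and 4485 (12.6%) low over all probe sets tested. Against single groups, 6521 (18.4%) were higher and 11484 (32.4%) lower than in the stigma, and 4665 (13.2%) and 4134 (11.7%) than in the ovary. Against earlier pistils, 3981 (11.2%) were higher and 2408 (6.79%) lower than at 40-50 min, and 5041 (14.2%) and 3863 (10.9%) than at 15-25 min. These comparisons share the 5-7 h arrays. Centring each array on its median in place of the 75th percentile left 2917 above and 1026 below.

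**Figure D1:**
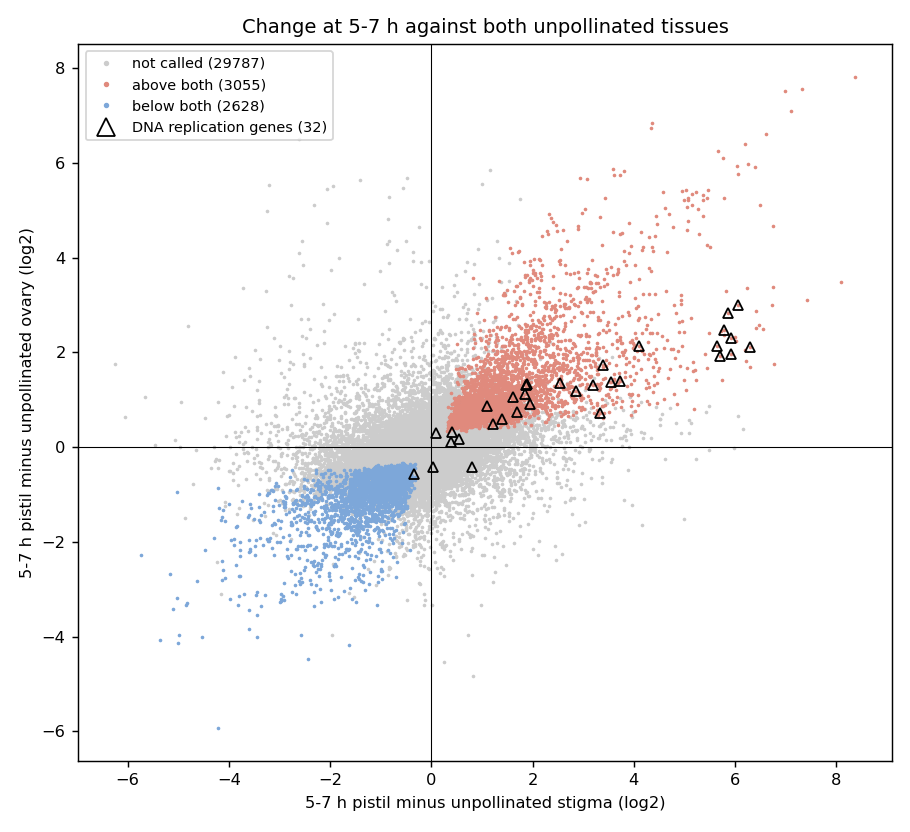
Log2 change of the 5-7 h pistil from the unpollinated stigma (horizontal axis) against its change from the unpollinated ovary (vertical axis), 1 point per probe set tested, with the 3055 called above both and the 2628 called below both in colour. Triangles are genes of the DNA replication list, 24 of which lie up and to the right as calls.

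DNA replication genes had the largest share above both among the lists of more than 6 tested genes. All 32 replication genes on the array were tested, 24 were above both tissues against 12.8% of all genes, and none was below both. Their median change was 2.24 from the stigma and 1.24 from the ovary, where the medians over all genes were -0.08 and 0.04. Against the 40-50 min pistil 27 of the 32 were higher, with 16.1% of all genes higher in that comparison. One of the 24, CYC07, is a ribosomal protein named for its S-phase expression, and it also stands in the ribosome list. Leaving out any 1 array left 20 to 25 of the genes above both, and without the stigma array of replicate 1 there was 1 below.

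RPA70b, the large single-strand binding subunit of replication protein A, had intensities of 14.7, 15.8 and 14.7 in the 5-7 h pistils, 0.22, 0.211 and 0.254 in the stigma, and 2.4, 1.31 and 2.13 in the ovary. It was 8.02-fold above the ovary (log2 change 3.0 ± 0.27 SE, limma adjusted p = 3.02e-07) and 6.05 above the stigma. At 15-25 min it measured 2.54, 1.49 and 1.9, and at 40-50 min 2.02, 2.83 and 2.73, which overlaps the unpollinated ovary at both times. Its partner RPA32 stood at 18.0, 18.3 and 18.0 in the 5-7 h pistils against 3.29, 2.05 and 2.47 in the ovary, a change of 2.83. Of the 7 RPA genes 5 were above both, and RPA32-3 and RPA70a were not.

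The helicase subunit MCM7 measured 11.8, 9.47 and 9.45 at 5-7 h, 2.55, 1.38 and 1.71 in the ovary, and 0.201, 0.191 and 0.163 in the stigma. It was 5.58-fold above the ovary (2.48 ± 0.24, limma adjusted p = 7.65e-07). The 6 core helicase genes, MCM2 to MCM7, were all above both, by 1.93 to 2.48 from the ovary and 5.64 to 6.29 from the stigma. MCM8 and MCM9, which are not subunits of that hexamer, were not called, with changes from the ovary of 0.31 and -0.57. These subunit groups and PCNA were picked out after the values were seen. ORC genes were above both in 4 of 5 cases, by 0.90 to 1.73 from the ovary, with ORC2 not called. RFC genes were above both in 3 of 5 cases, by 0.72 to 1.18, without RFC1 and RFC2. Both polymerase delta genes, POLD1 and POLD2, were above both. PCNA had intensities of 25.9, 27.2 and 26.3 at 5-7 h, 6.51, 8.17 and 5.42 at 40-50 min and 6.75, 4.94 and 6.68 in the ovary, so the earlier pistil and the ovary overlapped while the 5-7 h arrays lay clear of both (2.13 ± 0.21 from the ovary, limma adjusted p = 9.4e-07). Some calls did not hold when 1 array or another was left out, though the changes moved little. ORC4, called at 0.90, was lost without the replicate 2 or 3 array at 5-7 h or of the ovary (0.75 to 0.90), and RPA32-2, at 0.49, without the replicate 3 array at 5-7 h or the replicate 2 or 3 array of the ovary (0.42 to 0.46). RFC4, at 0.72, was lost without any 1 of the 5-7 h or ovary arrays (0.66 to 0.78). FEN1A, a flap nuclease of lagging strand synthesis called at 0.60, was lost without any 1 of the 5-7 h arrays or the replicate 1 or 2 array of the ovary (0.53 to 0.64).

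**Figure D2:**
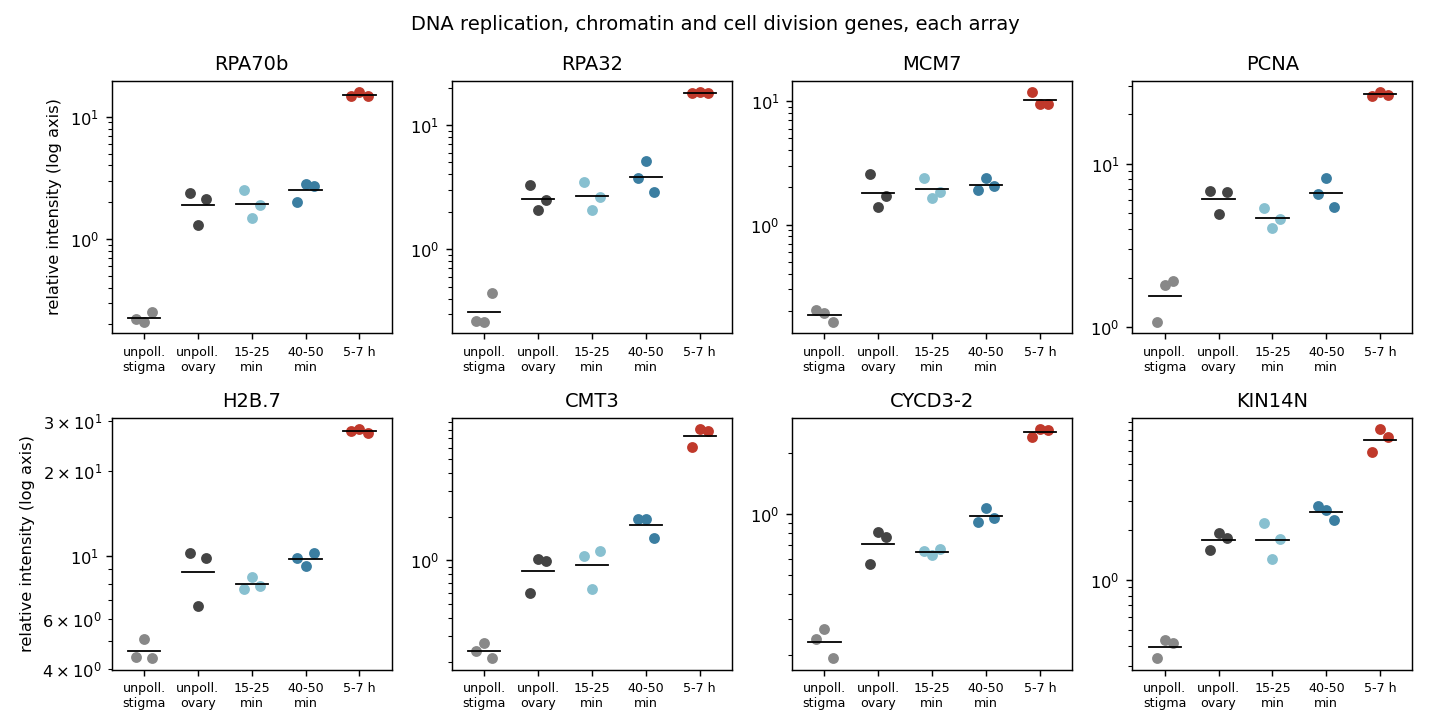
Relative intensity (log axis) of 8 genes of DNA replication, chromatin and division in the unpollinated stigma, the unpollinated ovary and pistils at 15-25 min, 40-50 min and 5-7 h. Dots are the 3 arrays of a group and lines their geometric mean; in each of the 8 panels the 5-7 h arrays lie above all others.

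Histone genes, whose products package newly made DNA, rose too. H2B genes were above both in 5 of the 5 tested, against 12.8% of all genes, and CenH3, the centromeric histone that completes the list, was not called. H2B.7 measured 27.8, 28.1 and 27.2 at 5-7 h against 10.3, 6.69 and 9.85 in the ovary and 4.42, 5.1 and 4.36 in the stigma, a 3.15-fold rise (1.66 ± 0.15, limma adjusted p = 4.15e-07). H2B.6 rose by 1.70 and H2B.10 by 1.60. H2B genes are near copies of each other, so their probe sets may share signal.

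In the list of DNA methylation, small RNA and Polycomb genes 6 of 36 members were above both and 2 below, near the 12.8% and 8.92% over all genes. Its largest rises were in DNA methyltransferases. CMT3, a chromomethylase that copies methylation outside CG sites, measured 6.09, 8.04 and 7.8 at 5-7 h, 1.94, 1.92 and 1.42 at 40-50 min, 0.591, 1.03 and 0.986 in the ovary and 0.238, 0.268 and 0.211 in the stigma. It was 8.6-fold above the ovary (3.10 ± 0.24, limma adjusted p = 5.88e-08) and 2.06 above the 40-50 min pistil. MET1B, the CG maintenance methyltransferase, measured 11.3, 12.9 and 12.4 against 1.63, 1.83 and 1.96 in the ovary, a change of 2.76 ± 0.33. MET1A rose by 1.69 from a low level, 0.593 to 0.86 at 5-7 h. The 2 members below both became 4 when the stigma array of replicate 3 was left out.

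Cyclins and cell cycle kinases as a list differed little from the background, with 7 of 42 above both and 4 below, against 12.8% and 8.92% of all genes. CYCD3-2, a D-type cyclin, a class that acts at entry into the cycle, measured 2.39, 2.61 and 2.6 at 5-7 h against 0.564, 0.815 and 0.767 in the ovary (1.84 ± 0.17, limma adjusted p = 3.6e-07). CYCA2-1 rose by 1.74 and CYCA3-2 by 1.66. Kinesin and tubulin genes, which build and drive the spindle and phragmoplast among other microtubule arrays, were above both in 18 of 47 cases and below in 1. The shares over all genes were 12.8% and 8.92%. For 12 of the 18 the 5-7 h arrays lay clear of all 6 unpollinated arrays. The count of 18 fell to 8 without the 5-7 h array of replicate 2, 8 without that of replicate 3 and 9 without the ovary array of replicate 1. The downward 1 went to 0 without any 1 of the 5-7 h arrays or the ovary array of replicate 3. The minus-end kinesin KIN14N measured 5.88, 8.12 and 7.25 at 5-7 h against 1.51, 1.91 and 1.8 in the ovary (2.02 ± 0.24, limma adjusted p = 6.36e-06), and KIN5C, of the spindle kinesin-5 class, rose by 1.89.

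Ribosomal and translation factor genes rose by small amounts. Of 37 tested 22 were above both tissues and 1 was below, against 12.8% and 8.92% of all genes. For all 22 the 3 arrays at 5-7 h lay clear of the 6 unpollinated ones, which also held for 2935 of the 3055 probe sets called above both. The smaller changes of the 22 ran from 0.39 to 1.37, with a median of 0.64. RPS26, of the small subunit, measured 30.5, 37.8 and 36.0 at 5-7 h against 11.6, 14.9 and 14 in the stigma and 15.4, 12.1 and 13.1 in the ovary (1.37 ± 0.22, limma adjusted p = 0.000149). The 40-50 min pistils stood at 9.31, 15.0 and 13.1, within or below the range of the unpollinated tissues. Of the 37 genes 29 were higher at 5-7 h than at that time, against 16.1% of all genes. Changes this small depended on the scaling: 12 were above both after quantile normalization and 6 after median centring. The 1 below went to 0 without any 1 of the 5-7 h arrays or the replicate 2 or 3 array of the ovary, and to 2 without the replicate 1 array of the ovary. The upward count was also 14 without the 5-7 h array of replicate 1 and 14 without the ovary array of replicate 2.

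A second set of genes stood higher at 5-7 h than in unpollinated tissue and in the earlier pistils. WRKY76, a transcription factor known in rice as a repressor of defence responses, was the largest rise among named genes. It measured 12.8, 11.6 and 11.9 at 5-7 h, 1.25, 1.15 and 0.736 at 40-50 min, 0.428, 0.158 and 0.612 at 15-25 min, 0.187, 0.172 and 0.139 in the stigma and 0.104, 0.182 and 0.129 in the ovary. The rise was 73.4-fold over the stigma (6.20 ± 0.37, limma adjusted p = 5.4e-10) and 3.57 over the 40-50 min pistil. At 40-50 min WRKY76 was already 2.63 above the stigma and 2.82 above the ovary (limma adjusted p = 3.39e-05 and 0.000102). WRKY62, its neighbour on chromosome 9 with 0 annotated protein-coding genes between, rose by 2.15, to 1.16, 1.37 and 1.05. NAC067, a stress-related NAC factor, rose by 2.44. The 24 factors of the WRKY, NAC and MYB list had 21 tested, of which 5 were above both and 2 below, against 12.8% and 8.92% of all genes. The 5 became 3 without the 5-7 h array of replicate 1.

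CAD6, of the cinnamyl alcohol dehydrogenase family that makes lignin precursors, measured 3.24, 2.15 and 2.54 at 5-7 h, and no array of the other groups shown exceeded 0.379. It was 11.6-fold above the ovary (3.54 ± 0.27, limma adjusted p = 5.75e-08). GRXC3 and GRXS5, glutaredoxins that reduce protein thiols, rose by 2.41 and 3.15. GRXC3 measured 2.76, 1.41 and 1.87 at 5-7 h against 0.194, 0.211 and 0.191 at 40-50 min, with no overlap (3.29 ± 0.31, limma adjusted p = 5e-06). Its probe set can also bind related transcripts. Of the 60 redox genes tested, 10 were above both and 5 below, near the 12.8% and 8.92% over all genes. Rac3, a small GTPase of the actin list, rose by 1.48 and was 1.99 above the 40-50 min pistil.

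Some auxin genes were among these later rises. In the list of synthesis, conjugation and transport 5 of 23 were above both, against 12.8% of all genes, and 2 of the 5, TAR2 and DAO, also passed against the 40-50 min pistil. The 1 below became 2 without the ovary array of replicate 1. TAR2, of the tryptophan aminotransferase family that starts auxin synthesis and a gene picked after its values were seen, measured 3.43, 2.31 and 2.65 at 5-7 h, 0.435, 0.622 and 0.254 at 40-50 min, 0.638, 0.844 and 0.662 in the stigma and 0.117, 0.195 and 0.285 in the ovary (1.96 ± 0.30, limma adjusted p = 4.08e-05). DAO, the dioxygenase that oxidises auxin, measured 9.6, 6.4 and 7.22 against 1.83, 1.31 and 0.453 in the stigma, a 7.41-fold rise (2.89 ± 0.43), and was 2.85 above the 40-50 min pistil. GH3.2, which conjugates auxin to amino acids, rose by 2.95, and its difference of 1.01 from the 40-50 min pistil did not pass (limma adjusted p = 0.171), though it did with array weights (limma adjusted p = 0.0312) and in a fit of the groups compared only (limma adjusted p = 0.00237). GH3.6 and ILL6, the others above both, differed from the 40-50 min pistil by 0.43 and 0.05 (limma adjusted p = 0.288 and 0.935), and the call of ILL6, at 0.96, was lost without the 5-7 h array of replicate 1 (0.86) or the ovary array of replicate 3 (0.84). The Aux/IAA repressor IAA10 measured 14.9, 14.6 and 14.4 at 5-7 h, 1.98, 1.88 and 1.47 at 40-50 min, 3.71, 3.26 and 3.13 in the stigma and 0.966, 1.42 and 2.53 in the ovary. It was 4.36-fold above the stigma (2.13 ± 0.26, limma adjusted p = 2.95e-06) and 3.05 above the 40-50 min pistil. IAA14 rose by 2.37. Over the auxin response list 7 of 45 were above both and 2 below, the former near the 12.8% over all genes, and 16 of 45 were higher than at 40-50 min, against 16.1%. The 2 below became 1 without any 1 of the 5-7 h arrays or the stigma array of replicate 3.

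Growth and other hormone genes gave smaller counts. The growth-regulating factors GRF1, GRF3 and GRF4, transcription factors of growing organs, were above both out of 9 tested, against 12.8% of all genes. Of the 9, 5 were higher than at 40-50 min, against 16.1% of all genes. GRF1 measured 8.18, 7.94 and 7.97 against 3.98, 3.22 and 2.98 in the ovary and 0.447, 0.383 and 0.451 in the stigma (1.25 ± 0.18, limma adjusted p = 6.4e-05). In the brassinosteroid list 3 of 17 were above both, near the 12.8% over all genes, and none below. Among the 3 was CYP734A6, which inactivates the hormone, by 1.43. GA20OX3, of the gibberellin 20-oxidases that make gibberellin precursors, rose by 1.38. It was 1 of the 2 gibberellin genes above both among 15, also near that share, of which none was below, or 1 without the ovary array of replicate 1.

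Other large rises were already present 15-25 min after pollination. MT1B, a metallothionein, measured 10.8, 13.4 and 11.3 at 15-25 min, 8.68, 6.75 and 15.2 at 40-50 min and 14.7, 18.4 and 16.9 at 5-7 h, against 0.141, 0.182 and 0.632 in the stigma and 0.539, 0.196 and 0.192 in the ovary. It was 60.8-fold above the ovary at 5-7 h (5.93 ± 0.50, limma adjusted p = 1.79e-07) and 0.79 above the 40-50 min pistil (limma adjusted p = 0.317). AMY1.5, an alpha-amylase that breaks down starch, measured 8.04, 11 and 5.78 at 15-25 min and 8.92, 6.72 and 7.45 at 5-7 h. With 2 of the 3 ovary arrays raised to the floor it was 38.1-fold above the ovary by geometric means. PSK4, a precursor of the growth peptide phytosulfokine, was the 1 of 3 phytosulfokine genes above both, by 2.17, and differed from the 40-50 min level by 0.18 (limma adjusted p = 0.627).

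Chitinase genes, whose products cut fungal wall chitin, belonged to this set. The gene named Cht1 with the identifier LOC4342115 (another gene carries the same name) measured 17.6, 20.6 and 16.3 at 15-25 min, 16, 5.38 and 18.4 at 40-50 min and 9.27, 6.84 and 6.71 at 5-7 h. No unpollinated array exceeded 0.536, and the 5-7 h level was 34.8-fold above the ovary (5.12 ± 0.49, limma adjusted p = 6.65e-07). Its neighbour Cht-3 rose by 4.41 and Cht6 by 3.38. The defence list had 5 of 31 genes above both and 1 below, against 12.8% and 8.92% of all genes. The downward count became 2 without the stigma array of replicate 3. The carboxypeptidase cbp3 rose by 4.49, to 48.3, 57.9 and 52.4, from 1.02 to 3.34 over the 6 unpollinated arrays. In the jasmonate list OPR1, a reductase of the oxophytodienoate family, rose by 2.92 and OPR5 by 2.02. The list as a whole had 6 of 34 above both and 3 below, near the 12.8% and 8.92% over all genes, the 3 falling to 1 without either the replicate 2 or the replicate 3 array at 5-7 h.

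The salt-induced lectin salT differed from these in its course: it measured 69.3, 101 and 91.6 at 15-25 min, 65.8, 16 and 86.0 at 40-50 min, and 16.4, 16.8 and 17.7 at 5-7 h. At 5-7 h it was 24.0-fold above the ovary (4.59 ± 0.99, limma adjusted p = 0.00214), where single unpollinated arrays reached 3.07 in the stigma and 3.5 in the ovary. SWEET15, a sucrose exporter, was above both by 1.63 but 1.44 log2 units below its 40-50 min level (log2 change -1.44, limma adjusted p = 0.0129), a call lost without the 40-50 min array of replicate 1 (-1.36, limma adjusted p = 0.0515) or replicate 2 (-1.27, limma adjusted p = 0.0549). SWEET5 rose by 2.40 and MST3, a monosaccharide transporter, by 2.00, and 5 of 19 sugar transporters were above both, against 12.8% of all genes. In the stigma 5 min after pollination SWEET5 measured 23.6 and 16.5 and MST3 8.93 and 8.35, above their 5-7 h arrays. MST3 was -1.57 from the 15-25 min pistil (limma adjusted p = 0.0167), and SWEET5 did not differ from it (limma adjusted p = 0.099). The share of pollen RNA in either was not tested. The 1 sugar transporter below both was lost without the replicate 2 or 3 array at 5-7 h or the replicate 2 or 3 array of the ovary.

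Of 14 pollen markers, 2 matched a gene on the array. EXPB9, a pollen beta-expansin, measured 10.1, 11.3 and 13.2 at 5-7 h, 3.83, 4.38 and 2.35 in the stigma and 0.18, 0.328 and 0.487 in the ovary, and narrowly missed the call against the stigma (1.75 ± 0.72, limma adjusted p = 0.0501). EXPB10 was not higher, at 0.132 to 0.236. The summed level of both was 10.2 to 13.4 at 5-7 h, 2.6 to 11.2 at 15-25 min, 1.58 to 19.8 at 40-50 min, 2.8 to 4.93 in the stigma and 0.264 to 0.671 in the ovary. It was highest 5 min after pollination in the stigma, at 63.5 to 67.9, and was 8.4 to 19.8 in the ovary at that time. The share of pollen RNA in the rises that were present from 15-25 min was not tested.

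**Figure D3:**
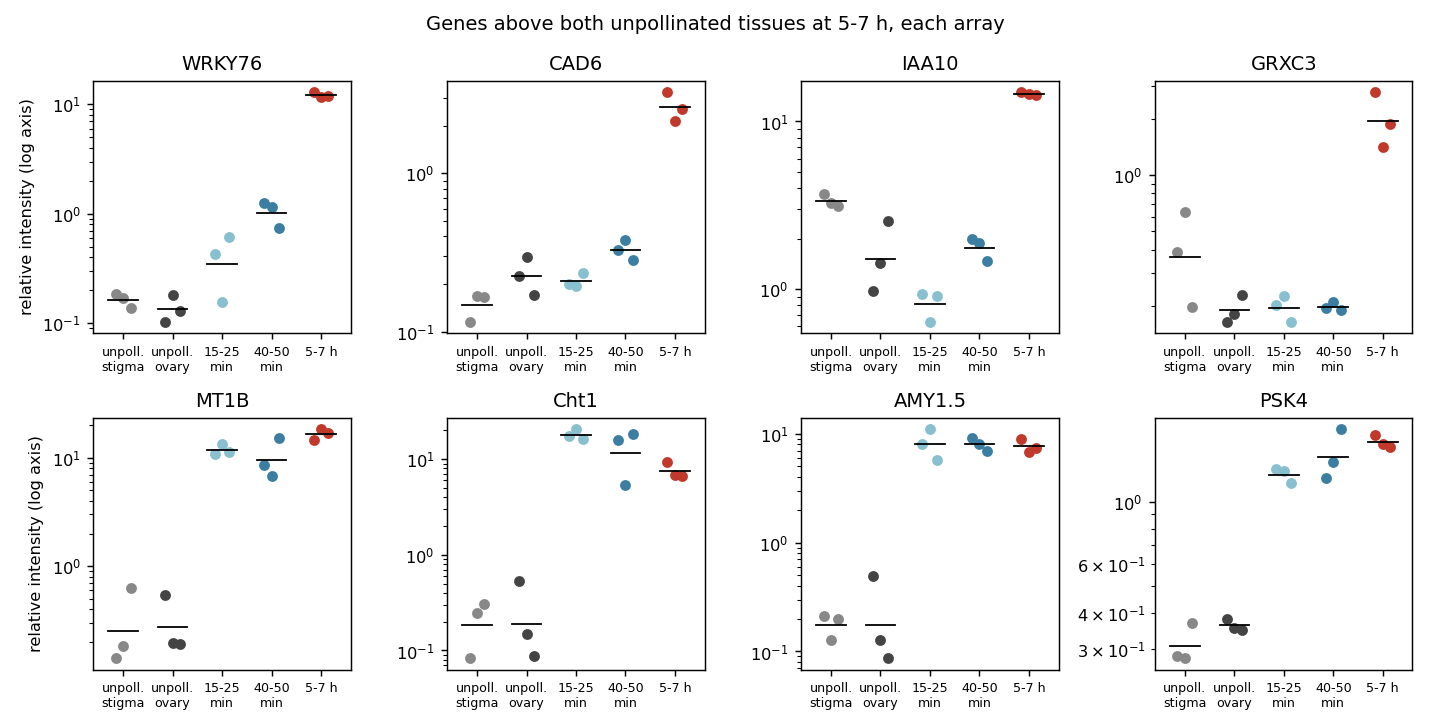
Relative intensity (log axis) of 8 genes above both unpollinated tissues, in the same 5 groups, with the 3 arrays of each group as dots and the geometric mean as a line. WRKY76, CAD6, IAA10 and GRXC3 are highest at 5-7 h, and MT1B, Cht1, AMY1.5 and PSK4 are already high at 15-25 min.

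Falls below both tissues were smaller and the unpollinated arrays more scattered. CCA1, a core repressor of the circadian clock that peaks in the morning in plants, measured 1.31, 0.705 and 0.824 at 5-7 h, 11.8, 8.63 and 10.2 at 40-50 min, 25.2, 2.51 and 21.5 in the stigma and 19.8, 25.0 and 4.6 in the ovary. It was 12.1-fold lower than the stigma (-3.60 ± 0.65, limma adjusted p = 0.000222) and -3.47 from the 40-50 min pistil. The stigma array of replicate 2 and the ovary array of replicate 3 were low, and the call held without each. On those same arrays the clock genes GI (29.4 and 20.3), PRR1 (8.39 and 4.92) and PRR95 (34.8 and 16.4) were the highest of their group. Unpollinated replicates thus differed in several clock genes. Among all probe sets called below both, these 2 arrays were the lowest of their group for 40.8% and 30.2%. Against the 40-50 min pistil 2 of 7 clock genes were higher, PCL1 by 2.69 and PRR1 by 1.59, and 2 were lower. The shares over all genes were 16.1% and 9.03%. Of the 7, 1 was above both unpollinated tissues and 2 below, against 12.8% and 8.92% of all genes. PRR37 was the 1 above, by 0.59, and was lost without the replicate 1 array at 5-7 h (0.52). PRR73 was the other below both, at -0.49, and was lost without any 1 of the 5-7 h arrays (-0.49 each) or the replicate 1 or 3 array of the ovary (-0.35 and -0.46). The labels give no hour of collection, so time after pollination and time of day cannot be told apart, for these genes or any other.

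Photosynthesis and chlorophyll genes were below both in 8 of 26 cases, against 8.92% of all genes, and none was above both. Leaving out any 1 array kept the count at 6 to 8, and median centring took it to 3. The median of the list was -0.60 from the ovary and -0.22 from the stigma, and the latter turned to 0.16 under median centring. PSAG, a photosystem I subunit, measured 0.51, 0.598 and 0.583 at 5-7 h, 3.3, 2.16 and 3.34 at 40-50 min, 4.35, 1.09 and 6.07 in the stigma and 3.04, 3.33 and 1.29 in the ovary (-2.07 ± 0.45, limma adjusted p = 0.00216). Its lowest stigma and ovary values, 1.09 and 1.29, came from the same arrays on which CCA1 was low. Rubisco activase, rca, was at -1.60 and CAO, which makes chlorophyll b, at -1.53. Against the 40-50 min pistil 8 of the 26 were lower, with 9.03% of all genes lower in that comparison. The leaf marker RBCS, the 1 of 3 that matched, was not called, at 1.35 to 1.59 at 5-7 h and 1.33 to 2.45 over the unpollinated arrays.

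The abscisic acid list was drawn by gene symbol, so it holds PP2C phosphatases and other matches whether or not they act in that pathway. Its genes were below both in 14 of 73 cases and above in 4, against 8.92% and 12.8% of all genes. The 14 became 8 or 9 without any 1 of the 5-7 h arrays and 9 without the ovary array of replicate 2, nearer to the share over all genes, and the 4 became 2 without the replicate 2 or 3 array at 5-7 h or the replicate 3 array of the ovary. PP2C39, of the PP2C phosphatase family, was at -1.70, and the receptor gene PYL11 at -1.34. Dhn1, a dehydrin of the kind that protects drying cells, measured 3.13, 2.8 and 3.19 at 5-7 h, 14.1, 17.4 and 8.44 at 40-50 min, 25.8, 16.4 and 13.9 in the stigma and 14.8, 15.9 and 9.2 in the ovary (-2.09 ± 0.33, limma adjusted p = 0.000134). It was the 1 dehydrin or LEA gene called among 7. Against the 40-50 min pistil 21 of the 73 genes of the abscisic acid list were lower and 2 higher, against 9.03% and 16.1% of all genes. The 2 became 1 without the replicate 2 array at 5-7 h.

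Genes of the ethylene, ERF and DREB list were below both in 6 of 20 cases, against 8.92% of all genes. The 6 included the DREB factors DREB1A at -1.34 and DREB1B at -1.62. ACO1, which makes ethylene from its precursor, measured 0.362, 0.31 and 0.347 at 5-7 h, 2.04, 2.66 and 1.71 at 40-50 min, 17.7, 5.58 and 1.12 in the stigma and 3.06, 3.7 and 3.45 in the ovary (-3.32 ± 0.60, limma adjusted p = 0.000523). The 1 ethylene gene above both was lost without the 5-7 h array of replicate 2, the ovary array of replicate 3 or the stigma array of replicate 1. Heat shock genes were below both in 7 of 49 cases and above in 2, where 8.92% of all genes were below. The 7 became 4, near that share, without the replicate 2 or 3 array at 5-7 h or the replicate 1 array of the ovary, and the 2 became 4 without the stigma array of replicate 1. The small heat shock gene hsp17.9 measured 2.64, 2.58 and 3.23 at 5-7 h against 54.1, 11.4 and 92.2 in the stigma and 13.4, 12.7 and 8.48 in the ovary (-2.01 ± 0.51, limma adjusted p = 0.00677). HSP16.9B was at -2.27, and its call was lost without the ovary array of replicate 1, where the smaller change was -1.88 (limma adjusted p = 0.0679).

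Aquaporins, the membrane water channels, were below both in 6 of 20 cases, against 8.92% of all genes, and above in 2. The 6 became 3 without the 5-7 h array of replicate 2, and the 2 became 0 without that of replicate 1 and 1 without the replicate 2 or 3 array at 5-7 h or of the ovary, or the replicate 2 array of the stigma. PIP1;1 measured 10.8, 8.72 and 11 at 5-7 h against 58.6, 41.0 and 48.5 in the stigma and 33.2, 29.1 and 34.4 in the ovary, a change of -1.67. Among those below both, PIP1;2, PIP2;4 and TIP2;2 were lowest of their group on the stigma array of replicate 2 and the ovary array of replicate 3. CCA1 was low on these arrays too. For PIP1;1, PIP2;2 and TIP4;2 this did not hold on both arrays. Expansins, which loosen walls, gave 3 above and 3 below among 25, near the shares over all genes in both directions. EXP1 measured 1.21, 0.908 and 1.17 at 5-7 h against 22.0, 3.57 and 18.2 in the stigma and 11.7, 9.8 and 11.7 in the ovary (-3.35 ± 0.48, limma adjusted p = 5.01e-05). The pistils at 15-25 min, at 5.16, 5.3 and 5.63, lay below the ovary and above the 5-7 h pistils. EXP1 and CAD6 lie close on chromosome 4, with 1 annotated protein-coding gene between, and moved in opposite directions.

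The largest fall among named genes was TPP7, a trehalose-6-phosphate phosphatase that removes a sugar signal, at 0.284, 0.238 and 0.316 against 16.6, 7.23 and 5.75 in the stigma and 4.8, 3.25 and 5.17 in the ovary (15.6-fold lower, -3.96 ± 0.70, limma adjusted p = 0.000388). By 40-50 min it was already at 0.541, 0.703 and 1.06, and the later difference of -1.41 did not pass (limma adjusted p = 0.18), though it did in a fit of the groups compared only (limma adjusted p = 0.00455). D14, the strigolactone receptor, measured 1.55, 1.29 and 1.55 at 5-7 h, 4.55, 4.1 and 6.07 at 40-50 min, 18.9, 16.3 and 25.6 in the stigma and 8.67, 7.11 and 5.94 in the ovary (-2.30 ± 0.20, limma adjusted p = 2.72e-07). PIN3A, an auxin exporter, fell in the same order, from 17.7 to 24.0 in the stigma and 6.58 to 8.11 in the ovary, through 3.15 to 3.65 at 40-50 min, to 1.64, 1.57 and 1.87 (-2.15 ± 0.17, limma adjusted p = 6.23e-08). WNK3, a protein kinase, was at -2.83, the calmodulin-like CML16 at -2.62 and the zinc finger gene OsC3H35 at -2.39.

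**Figure D4:**
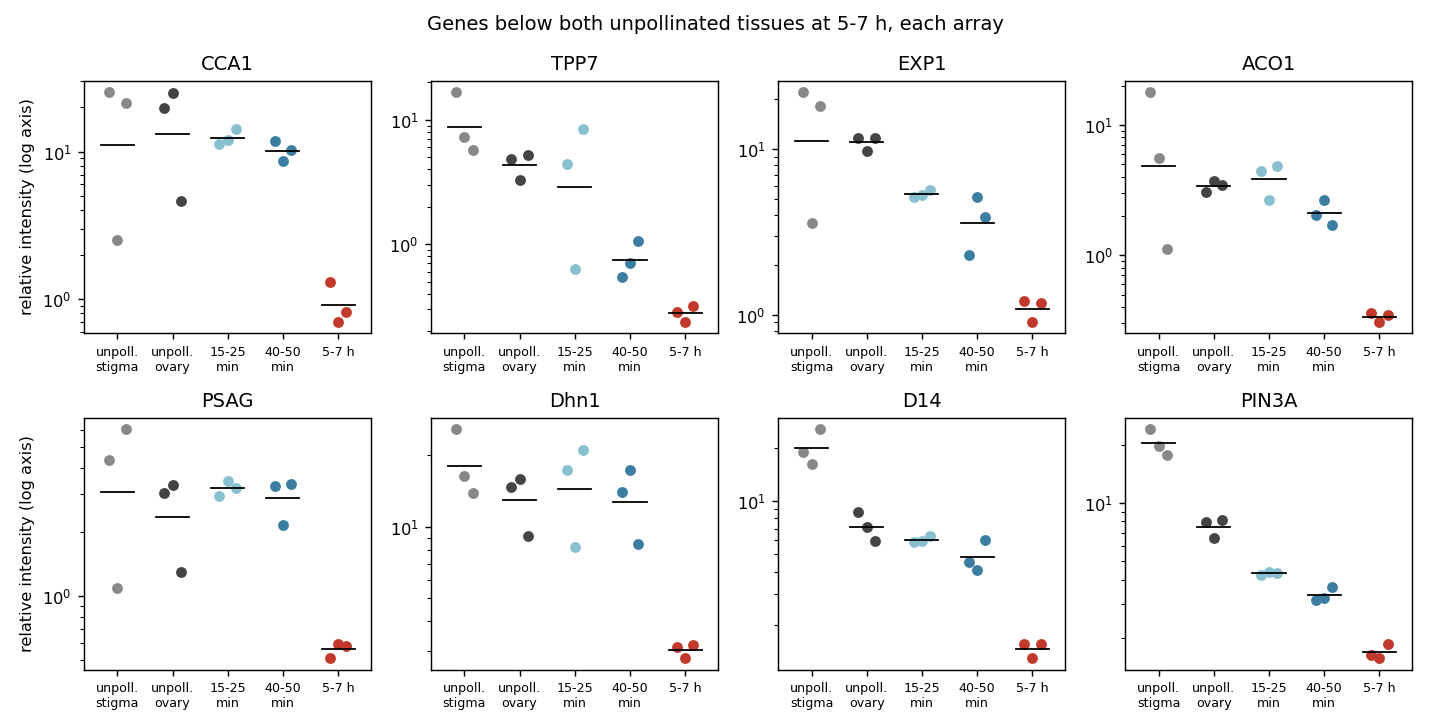
Relative intensity (log axis) of 8 genes below both unpollinated tissues, in the same 5 groups, with the 3 arrays of each group as dots and the geometric mean as a line. The 5-7 h arrays lie below all 6 unpollinated arrays in every panel, and the stigma arrays of CCA1, EXP1, ACO1 and PSAG are spread more widely than the 5-7 h arrays.

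Genes of the MADS family, transcription factors of which some specify the parts of the flower, were below both in 7 of 25 cases, against 8.92% of all genes. The 7 became 4 without the replicate 2 or 3 array at 5-7 h or the replicate 3 array of the ovary. MADS18 was at -1.37 and MADS16, a gene of stamen and lodicule identity, at -1.28, from 25.6 to 28.4 in the stigma and 7.55 to 28.4 in the ovary to 6.24 to 6.59. The summed level of the 2 stamen and lodicule markers that matched was 43.1 to 49.5 in the stigma, 12.7 to 34.9 in the ovary and 10.1 to 11 at 5-7 h. The 1 MADS gene above both was MADS29, which acts in the maternal nucellus of the developing seed. It measured 8.28, 7.7 and 7.43 at 5-7 h against 3.37, 2.91 and 2.59 in the ovary and 0.152, 0.157 and 0.123 in the stigma (1.41 ± 0.50, limma adjusted p = 0.0456), and was lost on leaving out any 1 array of the 9 other than the replicate 2 or 3 array of the stigma (1.32 to 1.51). NF-YB1, an early endosperm factor, was not called, at 0.117 to 0.229.

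Carpel and ovule markers had a summed level of 75.7 to 79.5 at 5-7 h, 82.6 to 87.6 in the ovary and 113 to 146 in the stigma. The sum was led by MADS58, at 35.0 to 37.4, 41.0 to 46.1 and 54.8 to 78.9 in that order. Its members differed: DL, MADS1 and MADS58 were highest in the stigma, while the levels of MADS13 and MADS21 were lowest there. MADS3 was below both, at -0.82, and the others were not called. Of 4 egg and zygote markers, 2 matched, and neither WOX8 nor WOX9 was called. Their summed level was 1.65 to 1.83 at 5-7 h, 1.46 to 1.98 in the ovary and 2.35 to 5.59 in the stigma. Most of it came from the gene matched as WOX8, which the annotation also names WOX13. That gene was higher in the stigma (2.12 to 5.33) than in the ovary (1.25 to 1.88), so the sum is not a measure of egg or zygote RNA alone. Tapetum and anther wall markers, 5 of 8 matched, summed to 2.88 to 3.38 at 5-7 h, 1.78 to 1.99 in the ovary and 2.37 to 3.4 in the stigma. Most of that sum came from GAMYB, at 2.05 to 2.77, 1.19 to 1.49 and 1.53 to 2.53 in the same order, and not called. EAT1, PTC1, TDR and CYP703A3 did not exceed 0.33 on any of these arrays, so the sum followed 1 gene. Seed storage genes, of which 7 were tested, gave no call in either direction.

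**Figure D5:**
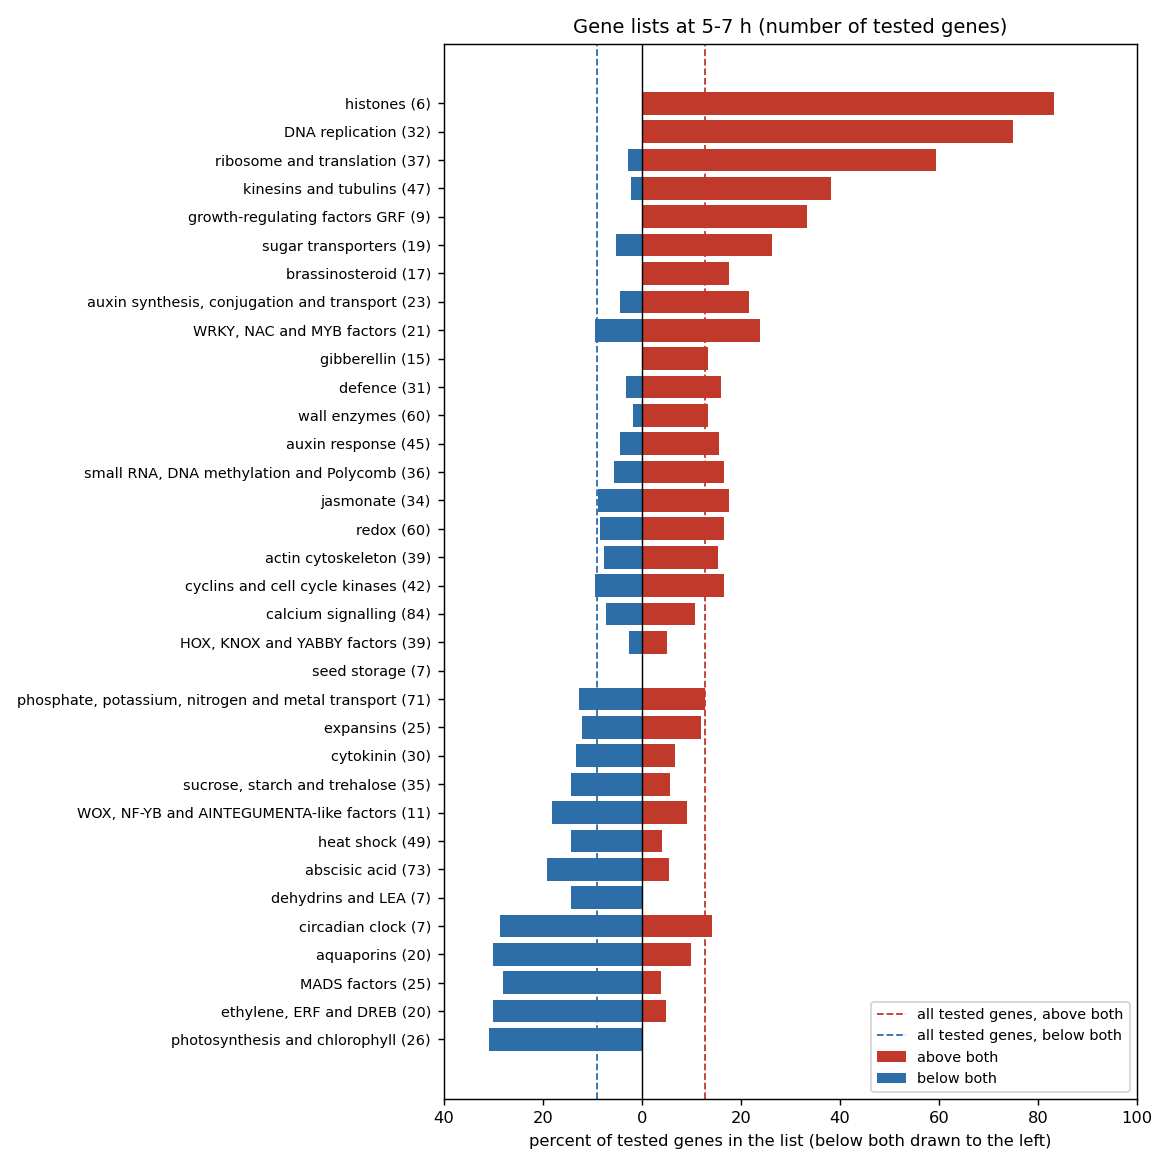
Share of tested genes above both (bars to the right) and below both (bars to the left) unpollinated tissues, in percent, for each gene list with at least 6 tested genes. Dashed lines mark the shares over all genes, 12.8% above and 8.92% below. Histone, DNA replication and ribosome bars reach farthest right, and photosynthesis, aquaporin and ethylene (with ERF and DREB) bars farthest left.

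Over all genes, 12.8% were above both and 8.92% below, the shares to set beside the lists that follow. Calcium signalling had 9 of 84 above and 6 below, the latter 3 without the replicate 1 array at 5-7 h. Transport of phosphate, potassium, nitrogen and metals had 9 of 71 in each direction, the downward count 5 without the replicate 1 or 3 array at 5-7 h. Wall enzymes had 8 of 60 above and 1 below, among the former GLU15, a glucanase probe set with 1 ovary array at 12.3 and the others at 0.207 and 0.644. The 1 wall enzyme below was lost without the replicate 2 or 3 array at 5-7 h or the replicate 1 or 3 array of the stigma. Actin genes had 6 of 39 above and 3 below, among the latter the depolymerising factor ADF-10 at -1.38. Cytokinin genes had 2 of 30 above and 4 below, and sucrose, starch and trehalose genes 2 of 35 above and 5 below. The 4 cytokinin genes became 0 without the replicate 2 array at 5-7 h, 1 without that of replicate 3, and 2 without that of replicate 1 or the replicate 1 or 2 array of the ovary, and the 5 sucrose and starch genes became 3 without the replicate 1 or 2 array at 5-7 h or the replicate 1 array of the ovary. HOX, KNOX and YABBY factors had 2 of 39 above and 1 below. The 2 became 0 without the replicate 1 array at 5-7 h and 1 without its replicate 2 or 3 array or the replicate 1 or 3 array of either unpollinated tissue, and the 1 became 2 without the replicate 2 array at 5-7 h or the replicate 3 array of the ovary and 3 without the replicate 2 array of the stigma. WOX, NF-YB and AINTEGUMENTA-like factors had 1 of 11 above, HAP3B by 0.68, and 2 below. Those 2 became 0 without the replicate 1 array at 5-7 h and 1 without its replicate 2 or 3 array, the replicate 2 array of the ovary or the replicate 2 or 3 array of the stigma. LOG, which activates cytokinin, was above both by 1.39.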

How the data were processed

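Total RNA, 500 ng per array, was labelled and hybridised, and GCOS 1.3 is named in the submitters' processing notes; other steps are not given in the sources used here. The authors deposited 1 linear intensity per probe set, and in every array of that table the 75th percentile equals 1. All 20 arrays matched a label (0 unmapped columns). For the results, a floor of 0.128, the table's 20th percentile, was set under all intensities. After removal of 187 control probe sets, testing was limited to those exceeding their array's median in 2 or more samples (35470 of 57381). A gene that passed only through its high group had to differ somewhat. Log2 values were fitted in limma 3.58.1 (R 4.3.3) with 7 group means, a variance trend and 13 residual degrees of freedom, and adjusted by Benjamini-Hochberg per contrast. Precision is limited by the number of arrays.

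Gene symbols came from the platform annotation and a RefSeq table: 22436 probe sets had 1 gene and 95 several, and 2452 of 17905 genes had a name. Where several tested probe sets had the same gene, the brightest on average stood for it. The comparison and the 35 gene lists were chosen with earlier results of these data known. Named genes are the 12 largest rises and 12 largest falls with the 5-7 h arrays clear of all unpollinated ones, up to 3 called genes per list and the markers. Others named, among them PCNA, TAR2 and the replication subunits, were chosen after their values were seen.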

Additional observations from a re-analysis of the deposited data

How the results depend on the processing

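The counts above and below both tissues were 3055 and 2628. They were 1501 and 815 at 2-fold or more, 2917 and 1026 with median centring, 2583 and 2131 with the larger p adjusted once, and 3155 and 2817 with the replicate number as a block. The labels do not say that a replicate number marks shared plants or days. Same-numbered deviations of the 5-7 h arrays correlated at 0.34, 0.393 and -0.015 with the ovary and at 0.205, -0.048 and 0 with the stigma, so not every pair deviated together in these comparisons, while ovary and 40-50 min arrays, not compared here, gave 0.173, 0.143 and 0.133. The numbers were therefore not used as pairs. Leaving out each array in turn gave 2387 to 3042 above and 1931 to 2756 below. Against the 40-50 min pistil 3981 probe sets were higher and 2408 lower. Those counts were 6056 and 4791 with array weights and 1371 and 1118 at 2-fold or more, while the lower count was 1195 with median centring and 4312 in a fit of the groups compared only. Leaving out 1 array gave 2757 to 3353 higher and 1466 to 2009 lower. It was 1560, 1466 and 1508 lower without the 5-7 h arrays of replicates 1, 2 and 3 and 1517 without the 40-50 min array of replicate 1. Against the 15-25 min pistil 5041 were higher and 3863 lower. At 2-fold or more these were 1975 and 1931, and the lower count was 6289 with array weights, 2186 with median centring and 5835 in a fit of the groups compared only. Leaving out 1 array gave 3915 to 4252 higher and 2667 to 3004 lower. The cause of these moves was not tested, apart from the fewer probe sets that a 2-fold minimum allows. Scaling moved the median change from the stigma by 0.20 (bright probe sets), 0.38 (median centring) and 0.22 (quantile). Under median centring CDKE-1 (LOC4349519), called below both, turned to 0.03, and the photosynthesis median against the stigma turned to 0.16. Of 302 genes in the lists or named, 173 were called under all 21 settings, and 101 were lost when 1 array or another was left out. Promoter motifs were not searched, as no promoter sequences were used here. The lowest probe sets lie at the floor, where no order can be read.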

Other observations

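The largest changes belonged to genes with no name in the tables used here. LOC4338337 measured 32.6, 53.1 and 47.1 at 5-7 h and 10.4, 11.3 and 10.5 at 15-25 min, and, with 2 of 3 arrays raised to the floor in each unpollinated tissue, was 226-fold above the ovary by geometric means and farther above the stigma. LOC4351442 measured 17.7, 24.6 and 21.9 at 5-7 h, 3.02, 0.678 and 0.45 at 40-50 min and no more than 0.191 in any unpollinated array, a rise of 137-fold over the ovary (7.10 ± 0.52, limma adjusted p = 4.35e-08) and of 21.8-fold over the 40-50 min pistil. LOC4351147, at the floor on all 6 unpollinated arrays, stood at 3.2, 1.52 and 1.27 at 40-50 min and 13.8, 12.6 and 11.3 at 5-7 h, at least 97.9-fold above both. In the other direction LOC4339023 measured 0.662, 0.538 and 0.694 at 5-7 h, 4.3, 6.14 and 4.61 at 40-50 min, 39.1, 20.0 and 22.4 in the stigma and 9.72, 7.19 and 16.9 in the ovary, 16.8-fold below the ovary (-4.07 ± 0.32, limma adjusted p = 8.36e-08). These 4 genes were chosen after their values were seen.

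Some called genes are close neighbours in the RefSeq annotation. OPR5 and OPR10 on chromosome 6 have 0 annotated protein-coding genes between them and OPR10 and OPR1 have 1, with rises of 2.02, 1.04 and 2.92, of which that of OPR10 was lost without any 1 of 6 arrays, the replicate 1 or 2 array at 5-7 h, the replicate 3 array of the ovary or any stigma array (0.91 to 1.11). FAS2, a chromatin assembly subunit, and PMEI28, a pectin methylesterase inhibitor, adjoin on chromosome 8 and rose by 1.41 and 2.33. Cht-3 and Cht1 (LOC4342115) adjoin on chromosome 6. GRXC3 and SWEET15, with 1 gene between on chromosome 2, were both above the unpollinated tissues but differed at 5-7 h from the 40-50 min pistil in opposite directions, by 3.29 and -1.44, the latter lost without the 40-50 min array of replicate 1 (-1.36) or 2 (-1.27). How often unrelated neighbours move together was not tested.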
